A study of Mus musculus with 6 samples.

Results

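The 10 genes described here encode regulators of mitochondrial biogenesis: Ppargc1a, Ppargc1b, Tfam, Nrf1, Gabpa, Esrra, Creb1, Ppara, Ppard and Pparg. They were taken by name from a fixed list, and every H3K4me3 peak within 1 kb of any of their GENCODE vM21 transcript starts was collected from 6 peak lists. They are 10 of the 21911 protein-coding genes to which the same rule was applied. H3K4me3, trimethylation of lysine 4 of histone H3, sits mainly at the starts of active genes. It was measured by ChIP-Seq on chromatin cut with micrococcal nuclease (MNase). The cells were STHdh striatal progenitor cells, conditionally immortalised mouse lines of strain C57BL/6 used as a culture model of Huntington's disease, and each genotype was 1 line. Q7SST was the wild type line (STHdh7) and Q111SST the mutant line (STHdhQ111, homozygous for the expanded huntingtin allele), both under serum starvation with vehicle for 24 h. The other 4 lists came from the mutant line under serum starvation with cyproheptadine, loxapine, diacylglycerol kinase inhibitor II (DKI) or meclizine, each at 10 uM for 24 h. Each condition had 1 peak list, so no difference below has a replicate check and no p-value is given. Genotype and cell line cannot be told apart in Q7SST, and all 5 comparisons with Q111SST share the Q111SST list.

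Mitochondria are assembled from proteins of the nuclear and the mitochondrial genomes, and their number is set largely by nuclear transcription. The coactivator PGC-1 alpha, encoded by Ppargc1a, binds nuclear respiratory factors, estrogen related receptors and PPARs and raises transcription of their target genes. CREB can switch on Ppargc1a itself, and nuclear respiratory factors act on Tfam, whose product packages and transcribes mitochondrial DNA. In the striatum, low PGC-1 alpha activity has been linked to the energy defects of Huntington's disease.

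The promoter sequences show where the binding motifs of some of the 10 regulators stood in these genes. RefSeq promoter windows on GRCm38.p6, of 250 bases before to 50 bases after a start, matched 9 of the 10 genes. Windows of the same length were read from the genome for 2 further Ppargc1a starts, chosen after the peaks had been seen. Exact matches on both strands were searched for GCGCATGC (core of the NRF1 motif), TCAAGGTCA (ESRRA), TGACGTCA (CREB) and AAGATGGC (YY1). The ETS motif bound by GABPA was searched as CCGGAAG. The TATA box was searched as TATAAA. The repeat bound by PPARs with RXR was searched as paired copies of AGGTCA with a gap of 1 base. Of 32851 RefSeq promoter windows, 2.71% held the NRF1 core, 8.86% the ETS motif, 0.423% the ESRRA motif, 1.79% the CREB motif, 2.75% the YY1 motif, 13.6% the TATA box and 0.0396% the PPAR repeat. The 7 windows below were chosen because they hold a motif of 1 of the 10 regulators or, for Pparg, because its alternative starts differed in peak coverage. Each is written 5′ to 3′ in the direction of the gene, with motif matches in capitals.
Ppargc1a, proximal start, chr5:51553872-51554171, minus strand: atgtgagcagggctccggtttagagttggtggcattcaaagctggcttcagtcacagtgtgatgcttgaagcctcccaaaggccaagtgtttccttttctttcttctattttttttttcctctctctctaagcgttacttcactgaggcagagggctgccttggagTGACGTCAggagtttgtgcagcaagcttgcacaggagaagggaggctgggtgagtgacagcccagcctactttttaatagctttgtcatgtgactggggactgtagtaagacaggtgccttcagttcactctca
Tfam, chr10:71237995-71238294, minus strand: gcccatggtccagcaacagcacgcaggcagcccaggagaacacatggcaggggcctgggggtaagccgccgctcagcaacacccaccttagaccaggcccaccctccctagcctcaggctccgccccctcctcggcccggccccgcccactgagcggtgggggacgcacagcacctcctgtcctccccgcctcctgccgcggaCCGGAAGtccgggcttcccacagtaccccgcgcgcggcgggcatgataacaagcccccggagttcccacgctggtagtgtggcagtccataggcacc
Esrra, chr19:6921759-6922058, minus strand: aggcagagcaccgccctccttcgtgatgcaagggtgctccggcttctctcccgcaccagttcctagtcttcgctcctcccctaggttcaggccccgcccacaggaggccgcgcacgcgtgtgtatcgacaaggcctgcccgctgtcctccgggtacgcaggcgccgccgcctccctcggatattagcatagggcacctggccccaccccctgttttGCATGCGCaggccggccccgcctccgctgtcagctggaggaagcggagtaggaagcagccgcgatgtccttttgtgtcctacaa
Gabpa, chr16:84834874-84835173, plus strand: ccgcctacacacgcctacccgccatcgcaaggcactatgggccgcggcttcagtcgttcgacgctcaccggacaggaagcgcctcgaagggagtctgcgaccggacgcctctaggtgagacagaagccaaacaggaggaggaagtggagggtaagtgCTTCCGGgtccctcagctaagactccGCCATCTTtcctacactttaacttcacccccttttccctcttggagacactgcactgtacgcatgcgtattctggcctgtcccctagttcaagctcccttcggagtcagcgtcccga
Ppara, second start cluster, chr15:85735526-85735825, plus strand: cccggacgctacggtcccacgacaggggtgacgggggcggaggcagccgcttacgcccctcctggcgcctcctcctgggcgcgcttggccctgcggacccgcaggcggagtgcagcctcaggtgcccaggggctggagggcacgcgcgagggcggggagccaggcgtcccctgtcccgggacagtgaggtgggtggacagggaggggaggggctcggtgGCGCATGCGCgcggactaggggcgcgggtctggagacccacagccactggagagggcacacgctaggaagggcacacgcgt
Pparg, second start cluster, chr6:115362099-115362398, plus strand: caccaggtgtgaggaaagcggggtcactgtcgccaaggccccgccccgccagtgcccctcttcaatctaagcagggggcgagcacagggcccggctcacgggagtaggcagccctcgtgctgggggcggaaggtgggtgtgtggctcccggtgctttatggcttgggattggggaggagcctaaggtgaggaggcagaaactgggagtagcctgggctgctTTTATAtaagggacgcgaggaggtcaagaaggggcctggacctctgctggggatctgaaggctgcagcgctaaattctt
Pparg, start of the adipocyte-type isoform, chr6:115421816-115422115, plus strand: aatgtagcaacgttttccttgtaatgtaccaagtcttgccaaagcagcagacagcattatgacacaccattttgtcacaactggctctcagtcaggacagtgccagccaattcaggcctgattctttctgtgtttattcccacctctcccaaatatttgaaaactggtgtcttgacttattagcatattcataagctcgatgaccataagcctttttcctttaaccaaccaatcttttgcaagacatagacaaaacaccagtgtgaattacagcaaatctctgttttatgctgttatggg
Positions below are those of the first base of a match, counted from 0 at the transcript start. The Ppargc1a window held the full CREB palindrome at -84. Tfam held the ETS motif at -47. Esrra held the NRF1 core, on the opposite strand, at -34. Gabpa held the ETS motif bound by its own product at -93 and the YY1 motif at -67, both on the opposite strand. Ppara held the NRF1 core at -31 and, overlapping on the other strand, at -29. The second start cluster of Pparg held a TATA box on the opposite strand at -29, and the start of the adipocyte-type isoform held no match to any of the 7 motifs. A match is a description of the letters and was not measured as binding.

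All 10 regulators had a peak near a start in all 6 lists, whereas 53.5% of protein-coding genes did so. Strength was read as the percentile of a gene's strongest peak near a start, by the score deposited with it, among all peaks of the same list. The median percentile of the 10 genes was 83.1 in Q7SST, 87.8 in Q111SST, 84.8 with cyproheptadine, 77.8 with DKI, 86.6 with loxapine and 81.7 with meclizine. The medians over all marked genes in the same order were 80.4, 82.6, 79.5, 76.3, 83.0 and 80.3, so the median of the 10 genes was the higher one in each list. A percentile cannot tell apart fewer cells carrying the mark and less of the mark per cell. The lists held 30758 to 45564 peaks and the read depth behind them is unknown. Striatal progenitor markers were marked for 8 to 11 of 12 genes per list, and markers of neurons, glia, blood, endothelium, adipocytes and muscle for 1 to 3 of 22.

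The coactivator gene Ppargc1a and Nrf1 carried the strongest marks by median percentile, and Pparg, the PPAR that drives adipocyte differentiation, the weakest. The median percentile over the 6 lists was 95.0 for Ppargc1a, 94.9 for Nrf1, 91.0 for Esrra, 90.1 for Creb1, 85.2 for Tfam, 84.6 for Ppard, 75.9 for Gabpa, 58.1 for Ppara, 56.6 for Ppargc1b and 47.8 for Pparg. The ranges over lists overlapped between each neighbouring pair in this order except Gabpa and Ppara, where the lowest Gabpa value was 72.6 and the highest Ppara value 65.9. Thus 7 genes formed an upper group and Ppara, Ppargc1b and Pparg a lower group in every list. Ppargc1a and Nrf1 changed places when percentiles were taken only among peaks near annotated starts (medians of 89.2 and 89.7) and in lists cut to equal size (93.6 and 94.1).

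**Figure D1:**
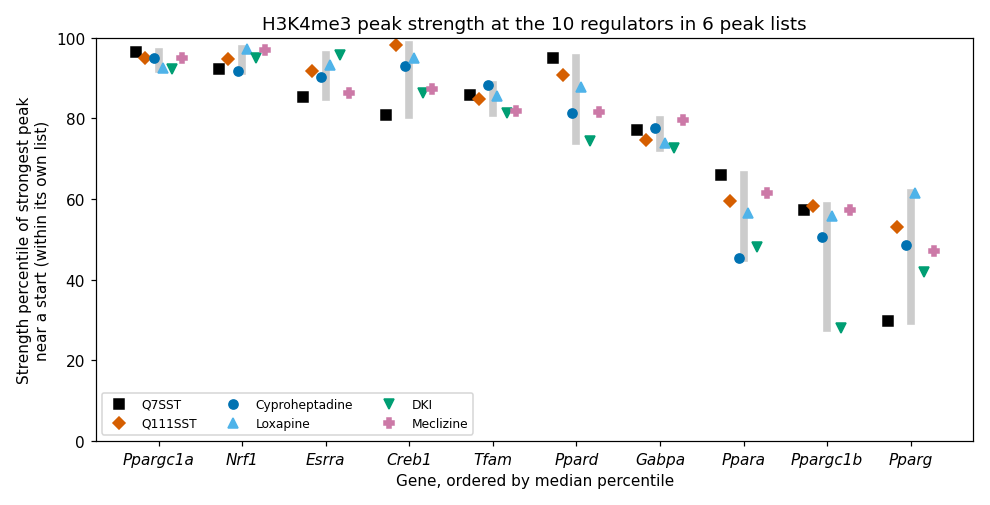
Strength percentile (vertical axis, 0 to 100) of the strongest H3K4me3 peak near a start for each of the 10 genes, ordered by median, with 1 point per peak list and a grey bar from the lowest to the highest list. Ppargc1a stays between 92.3 and 96.6, while Ppargc1b ranges from 28.1 to 58.3 and Pparg from 29.8 to 61.4.

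Ppargc1a was marked strongly at its proximal promoter in all 6 lists. The gene lies on the minus strand of chromosome 5 (51454250 to 51567726, mm10), with a proximal start cluster at 51553871 to 51553922 and a distal one at 51567704 to 51567726. Its percentile was 96.6 in Q7SST, 95.0 in Q111SST, 95.0 with cyproheptadine, 92.3 with DKI, 92.6 with loxapine and 95.0 with meclizine. These values lie near the top of the scale, which limits how far they can spread. Among peaks near annotated starts they ran from 82.3 with loxapine to 93.1 in Q7SST, a range of 10.8 points against 4.21 among all peaks. The proximal peak was 2190 to 2544 bp wide. It reached 2183 to 2366 bp downstream of the 5′-most proximal start but at most 183 bp upstream of it. It extended over the CREB motif shown above in Q111SST and with meclizine and ended short of it in the other 4 lists.

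The proximal Ppargc1a window was poor in CpG, with an observed over expected ratio of 0.169 against a median of 0.384 over all RefSeq windows. Most of this window lies upstream of the peak in Q7SST and with cyproheptadine, DKI and loxapine. The CpG ratio of the marked stretch itself was not computed. CpG-rich windows were the ones usually marked: in Q111SST a peak lay within 1 kb of 88.3% of starts with a ratio of 0.6 or more but of 12.6% of starts with a ratio under 0.3. The shares by CpG class rest on 6160, 4089 and 9901 windows, from the lowest class to the highest. These are only a part of the 32851 windows behind the median. Of 6160 windows under 0.3, 68 (1.1%) had a peak at percentile 95 or above in Q111SST, against 7.34% of windows from 0.3 to 0.6 and 12.9% of those at 0.6 or more. The Ppargc1a peak was at percentile 95.0 in Q111SST, close to that limit, and lay below it with DKI (92.3) and loxapine (92.6).

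The distal Ppargc1a start, used for alternative first exons, was marked in Q7SST and with meclizine. In Q7SST a 731 bp peak with a score of 18 (percentile 6.14) lay 194 bp away, and with meclizine a 723 bp peak with a score of 12 (percentile 0.271) covered it. Both were among the weakest peaks of their lists, where the lowest score was 10, and both dropped out of lists of equal size. In Q111SST and with loxapine the nearest peak lay 2195 and 2494 bp away, and with cyproheptadine and DKI 13776 and 13795 bp away.

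Peaks inside the Ppargc1a gene, away from its starts, were found in the 5 mutant lists and in none from the wild type line. Q111SST and loxapine each had 5 such peaks, meclizine had 4, and cyproheptadine and DKI had 3 each. One lay within 51544621 to 51545639, with its centre 8792 bp downstream of the proximal start. Its percentile was 45.2 in Q111SST, 56.0 with cyproheptadine, 89.1 with DKI, 80.4 with loxapine and 63.6 with meclizine. Another, further downstream, lay within 51511328 to 51512709, with percentiles of 68.0, 60.2, 53.5, 79.7 and 68.7 in the same order, and one more within 51466007 to 51467039, with percentiles of 38.1, 16.3, 52.6, 52.0 and 44.7. All 3 were present in all 5 mutant lists. A peak upstream of the gene was also present in those 5 lists and not in Q7SST, at percentiles of 20.6, 29.0, 45.1, 50.3 and 51.6. Of 1076 genes with 4 or more such peaks in Q111SST, 2.97% had none of them in Q7SST, 1.12% had none with cyproheptadine and 1.77% had none with DKI. This count was made after the Ppargc1a peaks had been seen. Over those genes, 57.1% of the Q111SST peaks were found in Q7SST, 64.0% with cyproheptadine, 59.4% with DKI, 88.0% with loxapine and 81.0% with meclizine.

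RefSeq also predicts Ppargc1a transcripts that begin far upstream, at 52115456 to 52115853, 547730 bp from the nearest GENCODE start. A peak lay there in all 6 lists, 1650 to 3435 bp wide, at percentiles of 32.6 in Q7SST, 29.3 in Q111SST, 25.6 with cyproheptadine, 38.6 with DKI, 42.7 with loxapine and 35.9 with meclizine. It covered a predicted start in 5 lists and ended 32 bp short of one with DKI. The window of the 5′-most predicted start had a CpG ratio of 1.19, higher than 99.5% of RefSeq windows. The long noncoding RNA gene Gm43177 also starts within 1 kb of this peak in Q7SST, Q111SST and loxapine. The peak therefore cannot be given to Ppargc1a alone. Another predicted Ppargc1a start upstream of the gene, at 51704392, had no peak within 1 kb in any list.

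**Figure D2:**
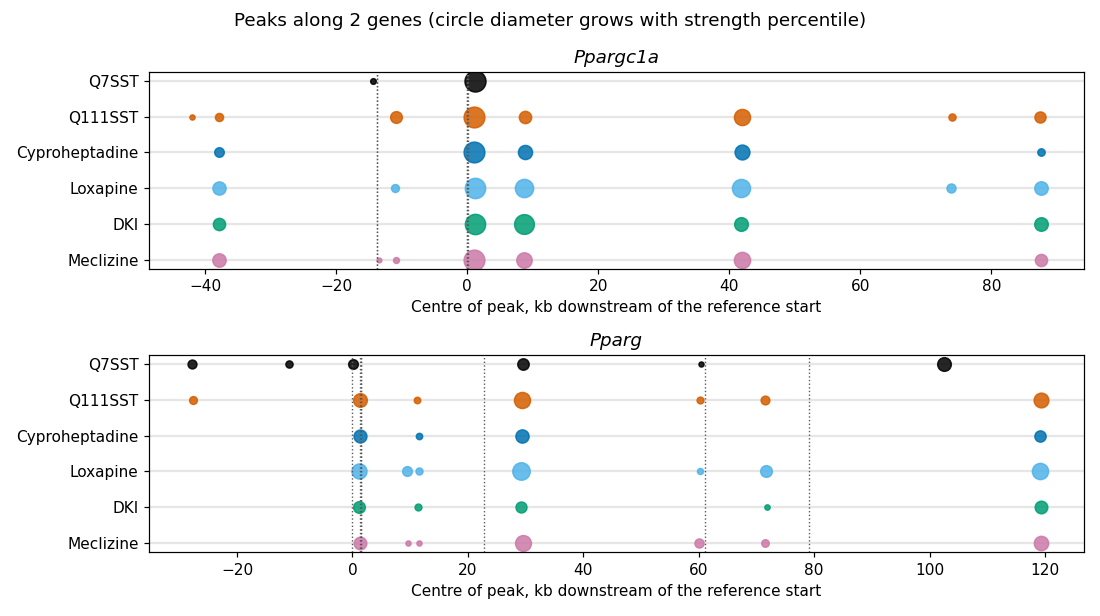
Peaks along Ppargc1a (upper) and Pparg (lower), by the distance of their centre in kb downstream of a reference start, with 1 row per peak list, circle diameter growing with strength percentile and dotted lines at GENCODE starts. The Q7SST row of Ppargc1a holds only the proximal peak and 1 weak peak beside the distal start, whereas the 5 mutant rows hold 3 to 5 further peaks inside the gene.

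Ppargc1b, which encodes the related coactivator PGC-1 beta, was marked more weakly than Ppargc1a in every list. It lies on the minus strand of chromosome 18, from 61298136 to 61400431, with a single start cluster. Its percentile was 57.4 in Q7SST, 58.3 in Q111SST, 50.6 with cyproheptadine, 28.1 with DKI, 55.9 with loxapine and 57.3 with meclizine. The DKI list was the lowest, and the other 5 lay between 50.6 and 58.3. In lists of equal size Ppargc1b was at 28.1 with DKI, 34.6 with loxapine and 45.2 to 46.8 in the other 4. The peak width hardly varied, from 2548 to 2760 bp, and only 2.1% of genes marked in all 6 lists had a smaller ratio of widest to narrowest. Its peak also lay within 1 kb of the starts of the miRNA genes Mir378a and Gm25301, which are inside Ppargc1b.

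Nrf1, which encodes nuclear respiratory factor 1, had 1 peak on each side of its main starts and none over them in every list. The main cluster, at chromosome 6, 30047988 to 30048151, holds the starts of 11 of its 20 transcripts. The upstream peak ended 185 to 256 bp before the first start, and the downstream peak began 653 to 720 bp after the last. The space between them was 1114 bp in Q7SST, 1055 bp in Q111SST, 1137 bp with cyproheptadine, 1051 bp with DKI, 1098 bp with loxapine and 1006 bp with meclizine. Of the 11713 genes marked in all 6 lists, 185 (1.58%) likewise had at least 2 peaks near their starts and none over a start in any list. The window at the first start had a CpG ratio of 0.971, higher than 92.4% of RefSeq windows. The percentile of the stronger of the 2 peaks was 92.3 in Q7SST, 94.8 in Q111SST, 91.9 with cyproheptadine, 95.0 with DKI, 97.2 with loxapine and 97.1 with meclizine.

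None of the other 4 GENCODE start clusters of Nrf1 had a peak within 1 kb in any list. A curated RefSeq start at 30087165 did in the 5 mutant lists, with a peak 205 to 352 bp away at percentiles of 43.0 in Q111SST, 46.5 with cyproheptadine, 25.0 with DKI, 59.5 with loxapine and 38.1 with meclizine. In Q7SST the nearest peak lay 37092 bp away. Away from the GENCODE starts, Nrf1 had no peak in Q7SST, 2 peaks in Q111SST, 2 with cyproheptadine, 3 with DKI, 3 with loxapine and 4 with meclizine.

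Creb1, which encodes the cAMP-responsive activator CREB, changed its peak layout between lists. In Q111SST and with cyproheptadine and loxapine, 2 peaks flanked the main starts (chromosome 1, 64532645 to 64532894) with gaps of 1075, 1072 and 1358 bp. In Q7SST and with DKI and meclizine, 1 peak of 3137, 2780 and 2856 bp covered the same region. The percentile was 80.8 in Q7SST, 98.3 in Q111SST, 92.9 with cyproheptadine, 86.2 with DKI, 95.1 with loxapine and 87.2 with meclizine. The 3 lists with a single peak had the 3 lowest percentiles. How a region was joined or split thus moved with the Creb1 percentile, and its part in the difference was not tested. Merging peaks within 1 kb left the Creb1 layout and change almost as they were, since the gaps exceed 1 kb.

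**Figure D3:**
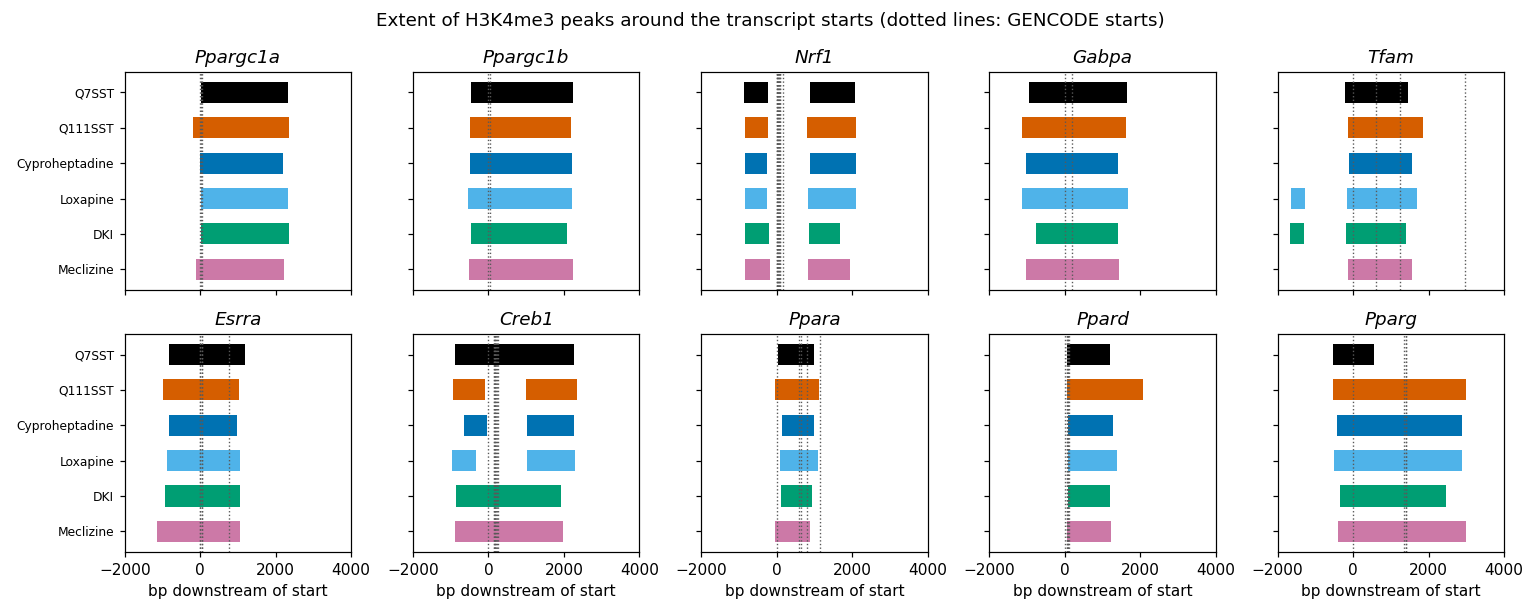
Peaks around the starts of the 10 genes, as bars from their first to their last base in bp downstream of a reference start (the 5′-most start of the first cluster marked in all lists), with 1 row per peak list and dotted lines at GENCODE starts. Bars run from 2000 bp upstream to 4000 bp downstream: Nrf1 has a gap over its starts in all 6 lists, Creb1 in 3, and the Pparg bar of Q7SST stops before the second group of starts.

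Gabpa, whose product is the ETS subunit of nuclear respiratory factor 2, varied by 6.87 points over the 6 lists, and by 12.1 among peaks near a start and 13.99 in lists of equal size. It lies on chromosome 16 (84834925 to 84863779). Its percentile was 77.2 in Q7SST, 74.7 in Q111SST, 77.6 with cyproheptadine, 72.6 with DKI, 74.0 with loxapine and 79.5 with meclizine. The peak, 2166 to 2815 bp wide, also lay within 1 kb of a start of Atp5j, a subunit gene of mitochondrial ATP synthase. The mark of Gabpa and of Atp5j therefore cannot be told apart. The 3 other Gabpa start clusters had no peak within 1 kb in any list.

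Tfam, which encodes mitochondrial transcription factor A, varied by 6.86 points, and by 13.5 among peaks near a start and 9.83 in lists of equal size. It lies on the minus strand of chromosome 10 (71225464 to 71238280). Its percentile was 85.7 in Q7SST, 84.9 in Q111SST, 88.2 with cyproheptadine, 81.3 with DKI, 85.5 with loxapine and 81.9 with meclizine. A single peak of 1584 to 1969 bp covered 3 of its 4 start clusters in every list, with the ETS motif inside it. The other start cluster lay 1118 to 1565 bp beyond the peak. A separate peak upstream, over 1 kb from any Tfam start, was found with loxapine at percentile 25.9 and with DKI at percentile 1.15.

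Esrra, the gene of estrogen related receptor alpha on the minus strand of chromosome 19 (6910977 to 6921813), was marked at percentiles of 85.3 in Q7SST, 91.8 in Q111SST, 90.2 with cyproheptadine, 95.8 with DKI, 93.3 with loxapine and 86.2 with meclizine. Its peak of 1815 to 2209 bp covered both start clusters in every list. With DKI, Esrra was 3.98 points above its Q111SST percentile among all peaks, 11.54 among peaks near a start and 6.55 in lists of equal size. Of the 10 genes, 2 were above their Q111SST percentile with DKI among all peaks, 4 among peaks near a start and 6 in lists of equal size. The median change over all genes rose in the same order, from -6.57 to -4.11 and -1.83 points.

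Of the PPAR genes, which encode lipid-sensing nuclear receptors, Ppard had the strongest mark. Ppard, the most widely expressed member of the family, was at percentile 94.9 in Q7SST, 90.7 in Q111SST, 81.3 with cyproheptadine, 74.3 with DKI, 87.8 with loxapine and 81.5 with meclizine. Its peak was 2007 bp wide in Q111SST and 1121 to 1294 bp in the other 5 lists, and the extra width lay downstream, where the Q111SST peak reached 2061 bp from the start against 1204 to 1381 bp. A peak inside the gene, within 28255999 to 28257587 on chromosome 17, ran the other way. It was at percentile 35.2 in Q7SST, 67.6 in Q111SST, 80.5 with cyproheptadine, 80.0 with DKI, 73.1 with loxapine and 85.2 with meclizine. The wild type line was thus highest at the Ppard promoter and lowest at the intragenic peak.

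Ppara, which directs fatty acid oxidation, had the smallest summed peak width of the 10 genes in every list. It lies on chromosome 15 (85734983 to 85802819). The percentile was 65.9 in Q7SST, 59.6 in Q111SST, 45.4 with cyproheptadine, 48.0 with DKI, 56.6 with loxapine and 61.5 with meclizine. The peak was 822 to 1177 bp wide and was the widest in Q111SST. It reached 887 to 1134 bp downstream of the first start. In every list it covered starts of the second cluster, which holds 4 of 6 transcripts, but not the last of them, 1148 bp downstream. It reached the first start in Q111SST and with meclizine.

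Pparg differed between the wild type and the mutant line in which of its starts the peak covered. The first 2 start clusters lie at 115360951 and at 115362292 to 115362350 on chromosome 6. In the 5 mutant lists 1 broad peak covered both, with a width of 3520 bp in Q111SST, 3304 bp with cyproheptadine, 2824 bp with DKI, 3416 bp with loxapine and 3390 bp with meclizine. In Q7SST the peak was 1064 bp wide, ran from 115360430 to 115361493 and stopped 799 bp before the second cluster. Its upstream edge lay 521 bp before the first start, within the 348 to 526 bp of the mutant lists, so the difference was on the downstream side. The summed width of all Pparg peaks near a start was 1895 bp in Q7SST and 2824 to 4143 bp in the mutant lists. Against Q111SST alone the ratio was 0.471.

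The 2 Pparg starts differ in base composition. The RefSeq window at the first cluster had a CpG ratio of 0.909, and that of the second, printed above with its TATA box, one of 0.467. The percentile of the strongest Pparg peak was 29.8 in Q7SST, 53.1 in Q111SST, 48.6 with cyproheptadine, 41.9 with DKI, 61.4 with loxapine and 47.1 with meclizine, and every mutant list was above Q7SST. The strongest Pparg peak in Q7SST had 37.7% of the width of the narrowest mutant one. In 113 of 11713 genes marked in all 6 lists (0.965%), Pparg among them, the strongest Q7SST peak was at most 50% as wide as that of each mutant list, a count made after the Pparg peaks had been seen. A weak peak near a further start adds to the summed width. That peak lay 242 bp from the adipocyte-type start (115422066) in Q7SST, 699 bp in Q111SST, 658 bp with loxapine and 644 bp with meclizine, at percentiles of 2.76, 12.9, 8.5 and 26.3. No peak lay within 1 kb of this start with cyproheptadine or DKI, and none covered it in any list. The adipocyte markers Adipoq, Fabp4, Plin1 and Cidec had no peak near a start in any list.

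Changes were next compared with those of all genes marked in both lists, taking 10 percentile points as a change. Between Q7SST and Q111SST, Creb1 was lower in Q7SST (-17.5 points), as was Pparg (-23.26), and none of the 10 was higher by 10 or more among all peaks. Among peaks near a start the changes were -35.47 for Creb1 and -11.56 for Pparg, so which of them moved more depends on the reference. Esrra was then also lower (-11.39) and Ppard higher (11.22), beside 17.6% of all genes lower and 19.1% higher. In lists of equal size Ppara was higher (10.54), beside 12.1% of all genes. With percentiles among all peaks, 13.0% of all genes were lower and 8.85% higher. The median change of the 10 genes was -0.12 points, against -1.04 over all genes. The sign of that median depends on the reference: it was 2.7 among peaks near a start and 1.71 in lists of equal size, against 0.02 and -0.58 over all genes. The Creb1 and Pparg changes lay beyond the 5th percentile of all genes, at -17.01 points.

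With cyproheptadine, Ppara was lower by 10 points or more (-14.17), but by less among peaks near a start (-9.31) and in lists of equal size (-6.76). Among peaks near a start, Ppard (-15.77) and Creb1 (-10.62) were lower with cyproheptadine by 10 points or more, and Tfam (10.59) and Gabpa (10.04) were higher, beside 29.8% and 12.5% of all genes. In lists of equal size none of the 10 changed by 10 points with cyproheptadine. Of all genes 25.9% were lower by 10 points or more and 3.48% higher. With loxapine none of the 10 genes moved by 10 points in either direction among all peaks, and 9.41% of genes were lower and 7.1% higher. Pparg was 8.3 points higher with loxapine. In lists of equal size the loxapine change was 4.42 for Pparg, -11.23 for Ppara and -10.59 for Ppargc1b, with 22.3% of all genes lower by 10 points or more. With meclizine, Creb1 was lower (-11.05), beside 10.0% of genes lower and 4.18% higher. Among peaks near a start and in lists of equal size, Creb1 was lower with meclizine by more (-22.96 and -13.75), and Ppard was also lower by 10 points or more (-16.54 and -10.92). Gabpa was higher with meclizine by 12.1 points among peaks near a start and by 7.56 in lists of equal size.

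With DKI, 5 of the 10 genes were lower and none was higher by 10 points when percentiles were taken among all peaks. These were Ppargc1b (-30.17), Ppard (-16.43), Creb1 (-12.03), Ppara (-11.64) and Pparg (-11.17). Over all genes 38.8% were lower and 3.55% higher, and the DKI list was the shortest, so a count of 5 is close to the background. Ppargc1b lay beyond the 5th percentile of all genes in that comparison, at -29.45 points. Its change was -16.1 among peaks near a start and -17.08 in lists of equal size. When percentiles were taken only among peaks near annotated starts, 3 genes were lower with DKI (Ppargc1b, Ppard and Creb1), beside 33.1% of all genes, and Esrra was higher by 11.54 points, beside 14.5%. The same 3 were lower in lists cut to equal size, beside 21.5% of all genes. Ppara and Pparg then differed from Q111SST by 1.03 and 3.54 points upward in the equal lists, so their direction with DKI depends on the size of the lists.

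**Figure D4:**
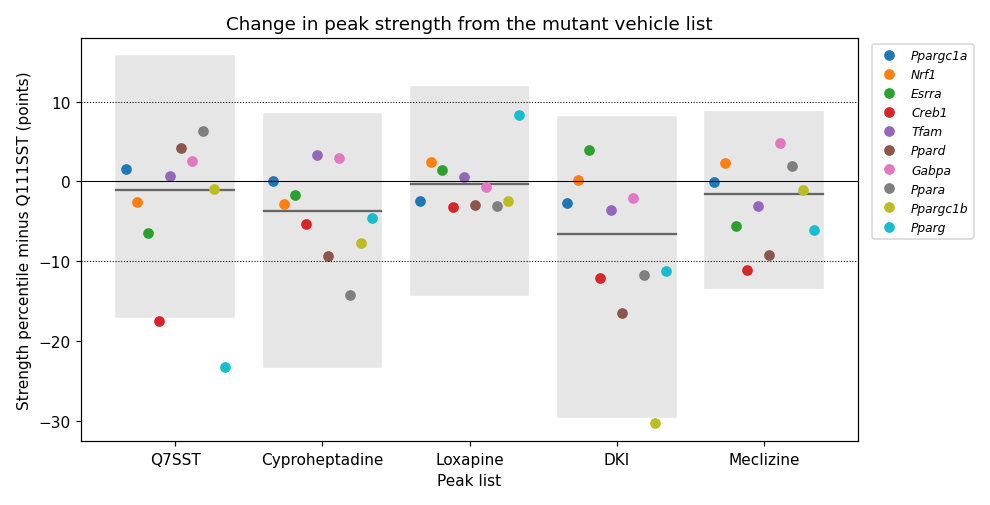
Change in strength percentile from Q111SST (vertical axis, points) for the 10 genes in each of the other 5 lists, with a grey band from the 5th to the 95th percentile of all genes marked in both lists, a grey line at their median and dotted lines at 10 points. Most of the 10 genes lie inside the band. Pparg in Q7SST lies below it at -23.26, and Creb1 in Q7SST and Ppargc1b with DKI lie just below it.

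Of 39 other genes of the pathway, 34 were marked in all 6 lists, as were all 10 genes of mitochondrial genome maintenance and targets. Percentiles of pathway genes were taken among all peaks only. Whether their changes hold among peaks near a start or in lists of equal size was not tested. Esrrg and Rxrg, a relative of Esrra and a partner of the PPARs, were marked in none. Camk4, a calcium-dependent kinase that acts on CREB, and Esrrb were marked in Q7SST alone, at percentiles of 50.0 and 43.4. Perm1, a muscle regulator induced by PGC-1, was marked in the 5 mutant lists at percentiles of 1.57 to 33.1 and not in Q7SST.

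In Q7SST, 1 of 34 pathway genes was lower and 1 higher by 10 points, beside 13.0% and 8.85% of all genes. These were Yy1, a factor that works with PGC-1 alpha, at percentile 72.3 against 93.2 in Q111SST, and Crem, a relative of CREB, at 98.1 against 86.5. Both also moved in treated mutant cells: Yy1 was at 78.7 with DKI and 76.9 with meclizine, and Crem was at 98.6 with loxapine and 97.4 with DKI. Gabpb1, the partner subunit of GABPA, was at 85.2 in Q111SST, 73.7 with DKI and 74.8 with meclizine. Rxrb, a partner of the PPARs, was at 61.9 in Q111SST and 49.9 with DKI. Among the 35 genes marked in each compound list and in Q111SST, 10 were lower with cyproheptadine, 10 with DKI, 2 with loxapine and 7 with meclizine, and 0, 3, 2 and 0 were higher. The shares of all genes lower by as much were 25.9%, 38.8%, 9.41% and 10.0% in the same order, and the shares higher were 3.48%, 3.55%, 7.1% and 4.18%.

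Of the 15 upstream signals and cofactors compared, 7 were lower with cyproheptadine (25.9% of all genes), 6 with DKI (38.8%), 2 with loxapine (9.41%) and 4 with meclizine (10.0%), so the DKI count is close to the background. Prkaa2, the catalytic alpha 2 subunit of AMP-activated kinase, was at percentile 73.2 in Q111SST and at 40.6 with cyproheptadine, 39.7 with DKI, 48.6 with loxapine and 37.0 with meclizine. Every compound list was thus below Q111SST, and Q7SST lay between them at 63.5. Kat2a, the acetyltransferase that represses PGC-1 alpha, was at 67.6 in Q111SST, at 59.6 in Q7SST and at 44.3, 38.6, 55.1 and 56.7 with the compounds in the same order. Crtc1, a coactivator of CREB, was at 69.8 in Q111SST and at 44.3, 45.1, 61.4 and 57.3. Mef2c, an activator of the Ppargc1a promoter, was at 88.6 in Q111SST and at 69.0 with cyproheptadine, 66.8 with DKI and 77.2 with meclizine. Med1, a Mediator subunit that binds nuclear receptors, was at 93.0 in Q111SST, 81.8 with cyproheptadine and 70.4 with DKI. The coactivator gene Ncoa1 was at 59.6 in Q111SST and 37.4 with DKI. With cyproheptadine the kinase gene Mapk14 was at 70.3 against 81.6, and the corepressor gene Nrip1 at 78.6 against 89.1. In contrast Crtc3, a relative of Crtc1, was at 75.8 in Q111SST and at 91.7 with loxapine and 88.5 with DKI.

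Among the genes for mitochondrial genome maintenance, Mterf3, a negative regulator of mitochondrial transcription, was at 85.9 in Q111SST and 98.9 with DKI. Polg2, the accessory subunit of the mitochondrial DNA polymerase, was at 79.4 in Q111SST and 67.8 with cyproheptadine. Cycs, the gene of cytochrome c, was at 90.3 in Q111SST and 79.5 with cyproheptadine. The other 7 genes of this group moved by less than 10 points in every list.

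Genes whose percentiles over the 6 lists were most like those of Ppargc1a were Cct3 and Tsacc, with a mean absolute difference of 0.69 points each, and Lca5, with 0.722. Cct3 and Tsacc had the same percentile as each other in every list, and whether they share a peak was not checked. Those most like Pparg, the gene with the widest range when percentiles were taken among all peaks, were Fry at 2.5 points, Rnf39 at 3.91 and Meis2 at 3.96. The likeness was taken over 6 lists and describes their levels only.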

How the data were processed

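The authors deposited 1 peak list per condition, with the start, end and a whole-number score of each peak. The scale of the deposited score was not stated, its lowest value was 10, and scores were ranked only within a list. The submitters' processing notes name the build mm10 and the tools Trimmomatic 0.36, Bowtie2, SAMtools 1.3 and MACS2. The series' design text gives triplicate treatment of mutant cells, and how replicates entered the peak lists was not given in the sources used here. MNase digestion places fragment ends by nucleosomes, which can affect where a peak is called around a start.

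Transcript starts came from GENCODE vM21 (GRCm38.p6) and starts within 500 bp were joined into a cluster, giving 32 clusters over the 10 genes, of which 15 to 17 had a peak per list. Widths are in bp and summed over peaks within 1 kb. Python 3.11.15, numpy 2.4.6 and pandas 2.3.3 were used. On a made-up list, 600 checks of the assignment (200 starts at windows of 0 bp, 1 kb and 5 kb) gave 0 mismatches. There, 200 of 200 planted falls in strength were called, and 0 of 500 unchanged genes. The planted falls were far larger than 10 points and the unchanged scores carried no noise. The outcome was thus fixed in advance and checks the code only, not changes between real lists. Named were the 10 genes, other genes starting within 1 kb of their peaks, pathway genes not marked in every list or moved by 10 points (the rule named up to 5 per group and comparison, and here all are named), and the 3 genes most like Ppargc1a and the gene of widest range. Members, lists and rules were chosen with earlier results of these data known. The motif windows, the counts over peaks inside genes, the width of the strongest peak, the CpG classes and the RefSeq starts are descriptions. All but the RefSeq motif windows were added after seeing the data, and so were the 2 Ppargc1a windows read from the genome.

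Alternatives were windows of 0 bp and 5 kb, lists cut to the strongest 30758 peaks, a score threshold at the pooled median of 47, starts of protein-coding transcripts only, clusters of 100 bp and 2 kb, percentiles among peaks near any start, merging of peaks within 1 kb, and a change of 5 points. Read depth was not used here.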

Additional observations from a re-analysis of the deposited data

How the results depend on the processing

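Every condition had 1 list, so no replicate could be left out, and the depth and the replicate spread limit all differences given. No paired analysis was possible because no group had a second list. The counts of genes and of start clusters with a peak stayed within 1.5 times of those reported under all alternatives run, including starts of GENCODE and RefSeq together, which was added after seeing the data. With a window of 0 bp, 8 or 9 of the 10 genes kept a peak per list. With the stricter score threshold 7 kept one with cyproheptadine and with DKI, 9 in Q7SST and 10 in the other lists. The counts and medians of changes depended on the reference for the percentile, and the cause was not tested. With percentiles among peaks near a start, 1 gene was higher by 10 points in Q7SST, 2 with cyproheptadine, 1 with DKI and 1 with meclizine, beside 19.1%, 12.5%, 14.5% and 11.1% of all genes. Lower by as much were 3 in Q7SST, 2 with cyproheptadine, 3 with DKI and 2 with meclizine, beside 17.6%, 29.8%, 33.1% and 13.6%. The median changes were 2.7 in Q7SST, -0.01 with loxapine, -2.7 with DKI and -0.84 with meclizine. In lists of equal size 1 gene was higher in Q7SST (12.1% of all genes), and 2 were lower with loxapine, 3 with DKI, 2 with meclizine and 0 with cyproheptadine (22.3%, 21.5%, 11.3% and 17.2%). The median changes were then 1.71, 0.28, -4.69 and 1.07 in Q7SST, cyproheptadine, loxapine and DKI. In equal lists the DKI change of Ppara turned to 1.03 and that of Pparg to 3.54. With a window of 0 bp, in which Creb1 has no Q111SST value, 1 gene was lower in Q7SST and 0 with meclizine (12.2% and 9.27%), and the Q7SST median was 1.12. At 5 points, 1 gene was higher in Q7SST and 1 with loxapine (17.8% and 18.6%), and 4 were lower with cyproheptadine and 4 with meclizine (44.1% and 27.8%). Merging peaks within 1 kb and a window of 5 kb left all 9 changes of 10 points or more past 10 points in the same direction.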
